A study of Homo sapiens with 4 samples.

Results

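The genes described here are 7 core components of the Hedgehog pathway, GLI1, GLI2, GLI3, PTCH1, HHIP, SMO and SUFU, taken as every probe that the platform annotation gives to these symbols. They were represented by 8 probes, 2 of them for HHIP, among 18473 named genes. Expression was measured in HEK293 cells, a widely used line derived from human embryonic kidney, on Illumina bead arrays. There were 4 groups with 1 array in each: CDC73 siRNA in confluent cells, control siRNA in confluent cells, CDC73 siRNA in sparse cells and control siRNA in sparse cells. All groups received 100 pmol of siRNA, and 24 hours later the cells went to a 35 mm dish to become confluent or to a 100 mm dish to stay sparse, for another 24 hours. The protein made from CDC73 is parafibromin, part of the PAF1 complex that accompanies RNA polymerase II. With 1 array a group no difference has a replicate check, no test was made, and every value below describes single arrays of 1 cell line after a transient transfection.

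In the Hedgehog pathway, a secreted ligand binds the receptor Patched, which otherwise holds the membrane protein Smoothened (SMO) inactive. Active SMO, acting at the primary cilium, frees the GLI transcription factors from their inhibitor SUFU. GLI2 is the main activator that carries the signal, GLI3 acts mostly as a repressor when no ligand is present, and GLI1 is an activator whose own gene is switched on by the pathway. PTCH1, the main Patched receptor, and HHIP, a cell surface protein that binds the ligands, are target genes too and damp the pathway, so that GLI1 and PTCH1 mRNA are the usual readouts of its activity. Parafibromin has been described as a partner of GLI proteins in the nucleus, and the comparison of CDC73 with control siRNA bears on the transcripts of that pathway.

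The best known GLI binding sequence is GACCACCCA, which reads TGGGTGGTC on the other strand. It was searched on both strands in RefSeq promoter windows of GRCh38.p14, each running from 250 bases before to 50 bases after a transcript start. Of 10 windows available for 5 of the 7 genes, 1 held the sequence, and it was 1 of 5 windows of PTCH1. It is shown because PTCH1 is the target gene against which GLI1 is read below. The match is in capitals and lies 172 to 164 bases before that start. It is shown within the 60 bases of chr9:95509404-95509463, on the minus strand, written 5′ to 3′ along the gene:
PTCH1: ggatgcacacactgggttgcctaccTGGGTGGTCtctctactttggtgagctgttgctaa
Of all 35116 windows, 83 (0.236%) held the sequence. None of the windows of 24 further reported GLI target genes did. A match is only a match of letters and does not show that a factor binds there.

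The arrays had total signals of 22948100 (CDC73 siRNA) and 28273400 (control siRNA) in confluent cells, and of 25283800 (CDC73 siRNA) and 26276100 (control siRNA) in sparse cells, so the confluent array with CDC73 siRNA was the dimmest. A probe was called detected when fewer than 1 in 100 of 453 olfactory receptor probes, a panel of genes taken as silent in these cells, were as bright on that array. That set the detection limit at signals between 103 and 123, and the panel medians were between 72.3 and 78.5. The knockdown could not be checked, since the only CDC73 probe was detected on no array, with signals of 90.0 (CDC73 siRNA) and 98.3 (control siRNA) in confluent cells and 83.5 (CDC73 siRNA) and 72.3 (control siRNA) in sparse cells. The siRNA groups therefore rest on the labels. Of 9 genes reported in HEK293 cells, 6 were detected on all 4 arrays, among them VIM, KRT8 and LHX1, while NEFM, INA and PAX2 were detected on none. Of 10 named markers of blood, liver, muscle and fibroblasts, 9 were detected on no array and LUM, a fibroblast marker, on 3.

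PTCH1, SMO, GLI1, GLI2 and GLI3 were detected on all 4 arrays. HHIP and SUFU were detected on none. For scale, 9046 genes other than GLI1, of 18473 named genes, were detected on all 4 arrays by their brightest probe. None of the 5 measured genes differed 2-fold in any of the 4 comparisons, against a background of 3.92% of all measured genes for CDC73 siRNA in sparse cells, 5.74% for CDC73 siRNA in confluent cells, 5.5% for density with control siRNA and 8.19% for density with CDC73 siRNA. The largest of their 20 differences was that of GLI1 in sparse cells, where CDC73 siRNA went with a lower signal.

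**Figure D1:**
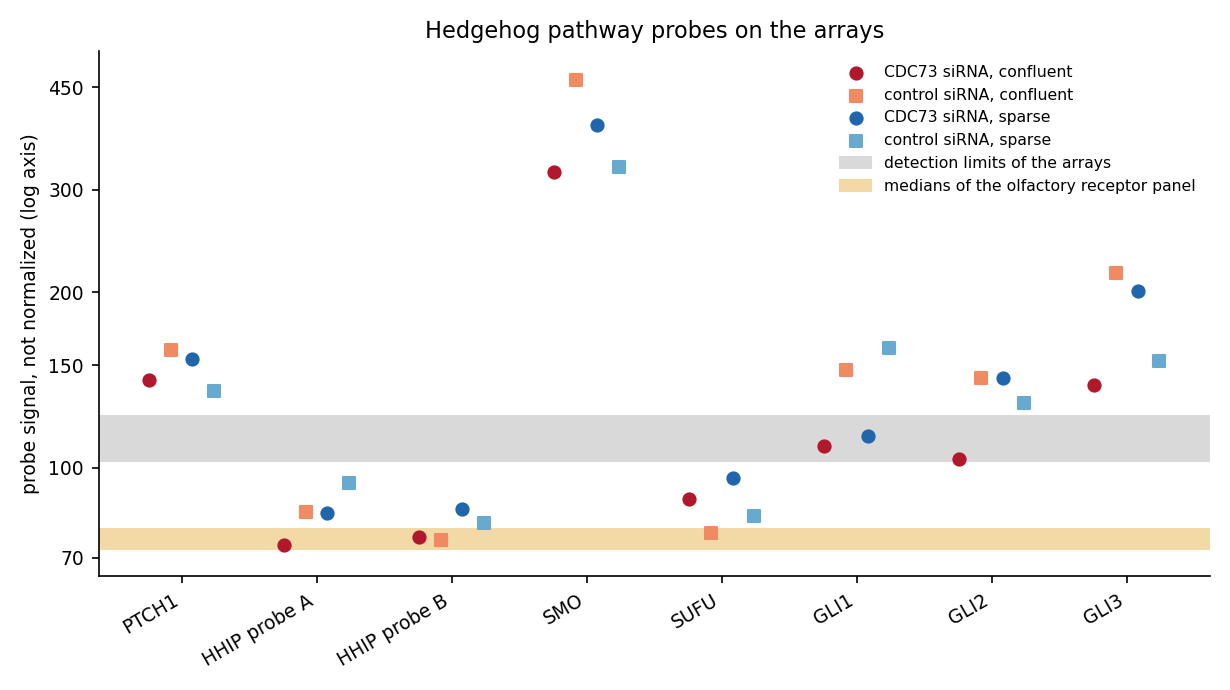
Signals of the 8 probes on the 4 arrays, on a log axis, before any correction; each point is 1 array, circles are CDC73 siRNA and squares control siRNA, and HHIP probe A is the brighter of its pair. The grey band spans the detection limits and the tan band the panel medians of the arrays: GLI1 lies between 109 and 161, and the HHIP and SUFU points lie under the grey band. Probes differ in brightness for their own reasons, so levels are comparable along 1 probe only.

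Below, signals are as deposited, and log2 values are after background correction and quantile normalization of the 4 arrays. GLI1, the activator that the pathway induces, had a signal of 109 with CDC73 siRNA and 147 with control siRNA in confluent cells, and of 113 with CDC73 siRNA and 161 with control siRNA in sparse cells. Both arrays with CDC73 siRNA were lower than both arrays with control siRNA. On the log2 scale GLI1 stood at 5.83 (CDC73) and 6.09 (control) in confluent cells, and at 5.80 (CDC73) and 6.70 (control) in sparse cells. The log2 difference of CDC73 from control siRNA was -0.90 in sparse cells, which is 1.86-fold lower, and -0.26 in confluent cells. The value in confluent cells was between -0.59 with median scaling of the arrays and -0.10 with median scaling on detected probes. With control siRNA, GLI1 was also lower in confluent than in sparse cells, at -0.61, while with CDC73 siRNA the density difference was 0.02. The order of the arrays was thus sparse control, then confluent control, with both CDC73 arrays last and next to each other. In RNA pooled from a whole dish, fewer cells with the transcript and less of it per cell cannot be told apart.

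The size of these differences can be set against 2 kinds of scatter within the arrays. Where 2 probes of a gene fell into the same range of brightness as the detected Hedgehog genes (373 genes), their disagreement gave an SD per probe of 0.27 for siRNA in sparse cells, 0.36 for siRNA in confluent cells, 0.30 for density with control siRNA and 0.34 for density with CDC73 siRNA. The GLI1 differences of -0.90 and -0.61 exceed that SD, and those of -0.26 and 0.02 do not. The SD was computed on the background-corrected and quantile-normalized values only. That range of brightness ran from 6.06 to 8.28 in mean log2 value. GLI1, at 6.10, and GLI2, at 6.06, lay at its lower end, and the probe scatter at that level alone was not measured. In raw signal the differences ranked otherwise. The GLI1 difference of CDC73 from control siRNA was -47.4 in sparse cells, outside the panel probes' differences of -27.9 (1st percentile) to 16.5 (99th percentile), and -37.9 in confluent cells, outside their -28.5 to 17.4. The raw density difference of GLI1 was -13.7 with control siRNA, inside the panel's -22.8 to 22.3, and -4.25 with CDC73 siRNA, inside -22.0 to 21.3. So the siRNA difference in sparse cells passed both kinds of scatter, the siRNA difference in confluent cells and the density difference with control siRNA passed 1 each, and the density difference with CDC73 siRNA neither. The difference in sparse cells was singled out as the largest among the detected members, and 1 SD is a low limit. Passing it describes a size and is not a test. Raw signals are not scaled for the brightness of an array, and the confluent array with CDC73 siRNA was the dimmest. For siRNA in confluent cells SMO differed by -141 in raw signal and by 0.01 after normalization. Passing the panel range there therefore cannot tell a lower GLI1 transcript from a dimmer array. A difference at least as large as that of GLI1 was shown by 5.82% of all measured genes in sparse cells and by 58.6% in confluent cells. How far dishes of the same treatment would differ was not measured, and GLI1 has 1 probe here. The GLI1 difference in sparse cells depended on the background correction: it was -0.45 without one and -0.43 in the authors' log2 table.

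GLI2, the main activator, and GLI3, mostly a repressor, did not follow GLI1. GLI2 had a signal of 103 with CDC73 siRNA and 143 with control siRNA in confluent cells, and of 143 with CDC73 siRNA and 129 with control siRNA in sparse cells. In raw signal the confluent array with CDC73 siRNA, also the dimmest array, was the lowest. There GLI2 barely passed the detection limit, with 4 panel probes as bright. On the log2 scale GLI2 stood at 5.65 (CDC73) and 6.02 (control) in confluent cells, and at 6.43 (CDC73) and 6.14 (control) in sparse cells. Its log2 difference of CDC73 from control siRNA was -0.37 in confluent and 0.29 in sparse cells, or -0.16 and 0.15 without background correction. The largest GLI2 difference was between confluent and sparse cells with CDC73 siRNA, at -0.78, against -0.11 with control siRNA.

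GLI3 had a signal of 139 with CDC73 siRNA and 216 with control siRNA in confluent cells, and of 201 with CDC73 siRNA and 152 with control siRNA in sparse cells. The siRNA difference therefore had opposite directions at the densities, -0.40 in confluent and 0.58 in sparse cells on the log2 scale. Between confluent and sparse cells GLI3 was at -0.61 with CDC73 siRNA and at 0.37 with control siRNA. In sparse cells GLI3 was thus higher with CDC73 siRNA while GLI1 was lower, and in confluent cells both were lower. All 4 GLI3 differences were larger than the probe SD of their comparison. Without background correction, where no SD was computed, that of -0.40 became -0.23 and that of 0.37 became 0.21.

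PTCH1, the receptor and GLI target gene, varied less over the 4 arrays than the GLI genes. Its signal was 141 with CDC73 siRNA and 159 with control siRNA in confluent cells, and 154 with CDC73 siRNA and 135 with control siRNA in sparse cells. On the log2 scale it was at 6.59 (CDC73) and 6.27 (control) in confluent cells, and at 6.60 (CDC73) and 6.27 (control) in sparse cells. The siRNA difference was 0.32 in confluent and 0.33 in sparse cells, and density gave -0.01 with CDC73 siRNA and -0.0035 with control siRNA. PTCH1 was thus slightly higher with CDC73 siRNA at both densities, where GLI1 was lower. The 0.33 in sparse cells passed the probe SD of 0.27, though it was 0.18 without background correction, where no SD was computed. The 0.32 in confluent cells stayed under the SD of 0.36. The direction in confluent cells turned with median scaling of the arrays, which gave -0.077 for PTCH1 and moved the median of all measured genes to -0.40.

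SMO, the signal transducer, was brighter than every panel probe on all 4 arrays. Its signal was 322 with CDC73 siRNA and 464 with control siRNA in confluent cells, and 387 with CDC73 siRNA and 328 with control siRNA in sparse cells. The confluent array with CDC73 siRNA was also the one with the lowest total signal, and after normalization the siRNA difference there was 0.01. In sparse cells it was 0.23, and density gave -0.01 with CDC73 siRNA and 0.22 with control siRNA. None of these passed the probe SD. With median scaling, however, SMO was at -0.46 for siRNA in confluent cells and at 0.49 for density with control siRNA. Both exceed the SD above, which was not computed on that scaling. The median of all genes moved there to -0.40 and 0.22.

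HHIP and SUFU, the ligand-binding and the GLI-binding inhibitor, gave no measurable level. The brighter HHIP probe had signals of 73.5 with CDC73 siRNA and 83.9 with control siRNA in confluent cells, and of 83.6 with CDC73 siRNA and 94.0 with control siRNA in sparse cells. The other HHIP probe had 75.9 (CDC73) and 75.1 (control) in confluent cells, and 84.9 (CDC73) and 80.4 (control) in sparse cells. The brighter probe was lower with CDC73 siRNA and the other higher, at both densities, all of it under the detection limit. SUFU had 88.2 with CDC73 siRNA and 77.1 with control siRNA in confluent cells, and 96.0 with CDC73 siRNA and 82.5 with control siRNA in sparse cells. Both CDC73 arrays were the higher ones, and only the sparse one passed a detection p under 0.05. No fold or log2 difference is given for either gene.

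**Figure D2:**
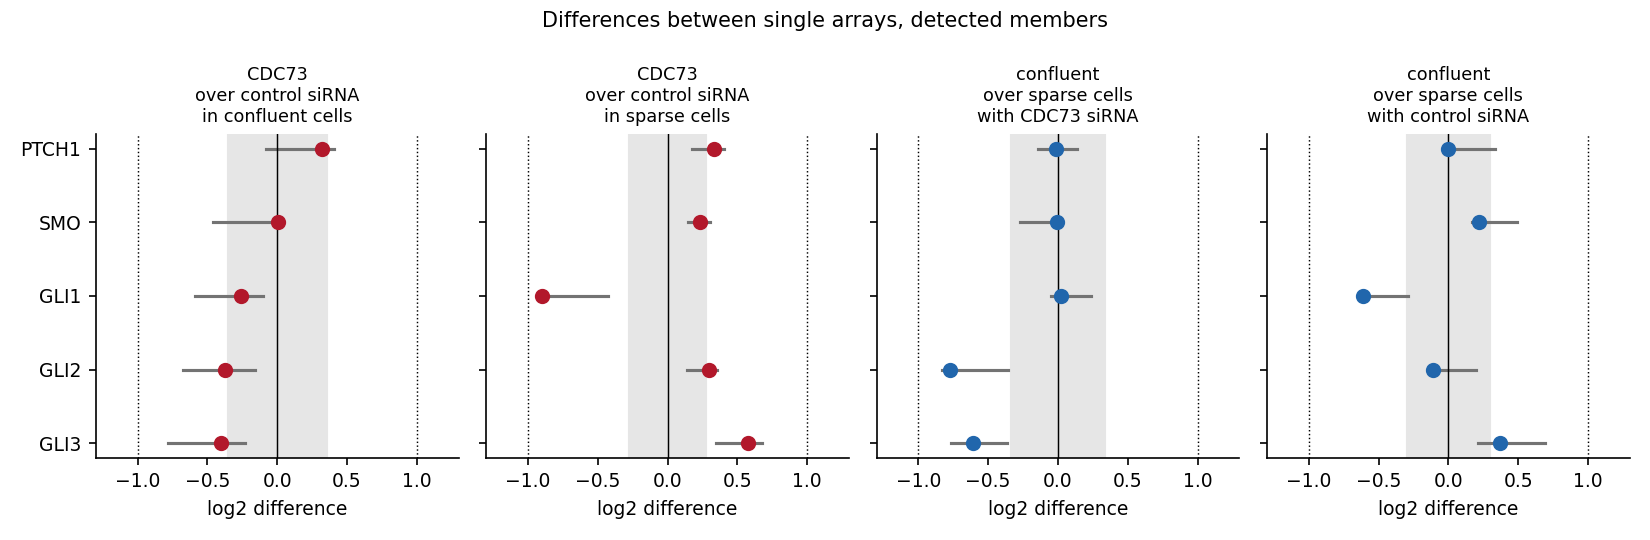
Log2 differences of the 5 detected genes in the 4 comparisons (points), with the span over 7 ways of scaling the same probes (grey lines), the SD per probe from genes with 2 probes of similar brightness (grey area) and the 2-fold limits (dotted). GLI1 in sparse cells, at -0.90, lies farthest from 0, and every point lies within the dotted lines.

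The effect of density on the siRNA difference was read as the difference of differences, confluent minus sparse. It was 0.64 for GLI1, -0.66 for GLI2, -0.98 for GLI3, -0.01 for PTCH1 and -0.23 for SMO. The siRNA difference of GLI1 was thus larger in sparse cells. Over the 7 scalings the value kept its sign for GLI1, between 0.25 and 0.80, for GLI2, between -1.03 and -0.31, and for GLI3, between -1.46 and -0.58. These differences of differences are built from 4 single arrays and were not tested.

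The genes whose pattern over the 4 arrays was nearest to that of GLI1, the detected gene with the widest range, were ATG5, HAT1, TNNC1, GNG5 and ATPAF2. Likeness was the root mean square difference of gene-centred log2 values, and it was between 0.03 (ATG5) and 0.06 (ATPAF2) among 9046 genes detected on all arrays. ATG5, an autophagy protein, had log2 values of 8.14 (CDC73) and 8.35 (control) in confluent cells and of 8.14 (CDC73) and 8.97 (control) in sparse cells. HAT1, a histone acetyltransferase, had 9.65 (CDC73) and 9.81 (control) in confluent cells and 9.64 (CDC73) and 10.47 (control) in sparse cells. With 4 arrays a near match among so many genes is easily found, and these are given as a description.

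Ligands were not detected. SHH, IHH and DHH, the human Hedgehog ligands, were under the detection limit on all 4 arrays, with SHH signals of 80.9 (CDC73) and 87.5 (control) in confluent cells and 107 (CDC73) and 102 (control) in sparse cells. The SHH signal of 107 lay just under the limit of that array, 108. Of 9 genes for ligands and their processing and release, DISP1 alone was detected on all arrays, and HHAT, the enzyme that adds palmitate to the ligand, on 1. DISP1, which releases the ligand from cells, had 225 (CDC73) and 294 (control) in confluent cells and 239 (CDC73) and 155 (control) in sparse cells. It was higher with CDC73 siRNA in sparse cells, at 0.89, and at 0.12 in confluent cells, so its lowest array was that of sparse cells with control siRNA.

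Among 5 named receptors and co-receptors, CDON, BOC and LRP2 were detected on no array. GAS1, a membrane-anchored co-receptor, had 547 (CDC73) and 982 (control) in confluent cells and 659 (CDC73) and 509 (control) in sparse cells. It was at 0.74 for confluent over sparse cells with control siRNA, where its second probe gave 0.66, and at 0.04 with CDC73 siRNA, where the second gave 0.40. GPC3, a glypican that competes with PTCH1 for the ligand, had 145 (CDC73) and 261 (control) in confluent cells and 136 (CDC73) and 117 (control) in sparse cells. With control siRNA it was under the limit on the sparse array, and at least 1.68-fold higher in confluent cells. Such a bound sets the bright array against the detection limit of the dim one, or the dim value where higher, and is the lowest of 7 scalings of the same probe.

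Genes acting between SMO and the GLI proteins, such as kinases and ubiquitin ligases, were within 2-fold by their brightest probe, except CSNK1A1 and ITCH. Of 17 measured in sparse cells 14 (82.4%) were higher with CDC73 siRNA, against 53.9% of all genes, with a median of 0.33 beside 0.04 for all genes. Among the 14, IQCE was under the limit with control siRNA, at 103, and counted as measured through the CDC73 array alone, at 136. Of 16 measured in confluent cells 11 (68.8%) were higher, against 49.7% of all genes, with a median of 0.13 beside -0.0023 for all genes, and median scaling put these at -0.27 and -0.40. The list was chosen with earlier results of these data known, and no excess is read from its shares. CSNK1A1, a casein kinase that phosphorylates GLI proteins, passed 2-fold in sparse cells at -1.03, with signals of 210 (CDC73) and 362 (control), and was at -0.76 in confluent cells. Its other 2 probes gave smaller values, -0.05 and -0.14 in confluent cells. In sparse cells one of them gave -0.35. The other went the opposite way, detected with CDC73 siRNA, at 123, and under the limit with control siRNA, at 118. ITCH, a ubiquitin ligase that can act on GLI1, had 817 (CDC73) and 685 (control) in confluent cells and 519 (CDC73) and 570 (control) in sparse cells, and with CDC73 siRNA it was at 1.05 in confluent over sparse cells. Probes of a gene could disagree. For CDC73 over control siRNA in confluent cells ARRB1 was at 0.20 by its brightest probe and at 1.14 and 0.19 by the others. DYRK2 was there at 0.22 by its brightest probe and at -0.64 and -0.75 by the others.

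Genes of the primary cilium, which houses the pathway, were described in the same way. Of 21 measured, 16 (76.2%) were higher with CDC73 siRNA in sparse cells, against 53.9% of all genes, with a median of 0.34. In confluent cells 17 (81.0%) were higher, against 49.7% of all genes, with a median of 0.23, which median scaling turned to -0.19 where it put all genes at -0.40. This list too was chosen with earlier results of these data known, and no excess is read from its shares. IFT88, a transport protein needed to build cilia, had 148 (CDC73) and 175 (control) in confluent cells and 170 (CDC73) and 111 (control) in sparse cells. In sparse cells it was under the limit with control siRNA, and at least 1.37-fold higher with CDC73 siRNA. It counted among the 16 above through the CDC73 array alone. A second probe was also detected with CDC73 siRNA, at 111, and under the limit with control siRNA, at 101. KIAA0586, also known as TALPID3 and needed for ciliogenesis, had 121 (CDC73) and 230 (control) in confluent cells and 161 (CDC73) and 272 (control) in sparse cells. It was lower with CDC73 siRNA at both densities, at -0.92 in confluent and -1.07 in sparse cells.

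**Figure D3:**
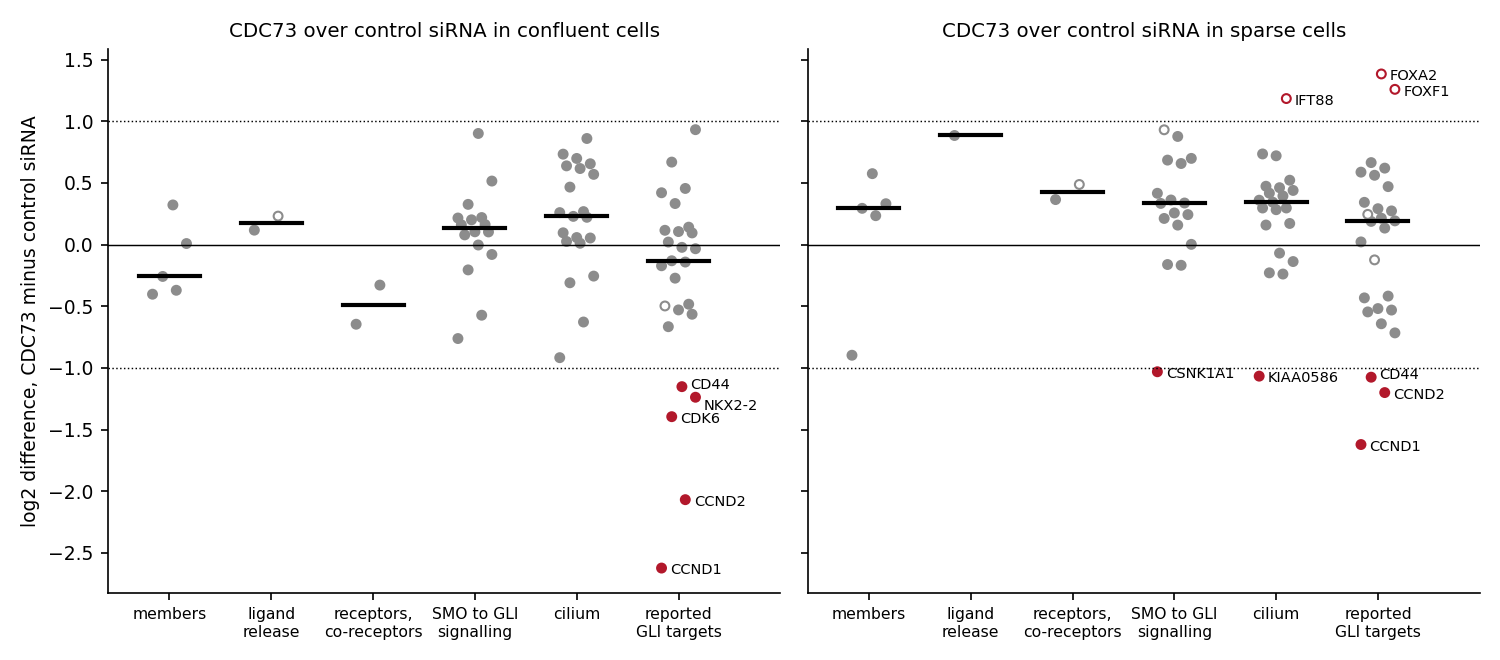
Log2 differences of CDC73 from control siRNA for every measured gene of 6 lists (points), with each list's median (bars) and the 2-fold limits (dotted), in confluent cells on the left and sparse cells on the right; named red points pass 2-fold, and open points are genes under the detection limit on 1 of the arrays compared, whose place is uncertain. The reported GLI targets CCND1 and CCND2 lie lowest in confluent cells, at -2.62 and -2.07, while the Hedgehog members stay within 2-fold.

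Genes reported as GLI targets in one tissue or species or another were split. Of 40 listed, 38 were named on the array. In confluent cells 26 were measured, of which 10 were higher and 16 lower with CDC73 siRNA, 0 of them 2-fold or more higher and 5 lower by that much, with a median of -0.14. In sparse cells 27 were measured, of which 16 were higher and 11 lower, 2 of them 2-fold or more higher and 3 lower by that much, with a median of 0.19. The counts past 2-fold are 19.2% and 18.5% of those measured, and compare with the backgrounds of 5.74% and 3.92% given above. Both genes counted as 2-fold higher in sparse cells were under the detection limit with control siRNA, and counted as measured through the CDC73 array alone. The list was chosen with earlier results of these data known, and no excess is read from these counts.

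By the brightest probe of each gene, the largest siRNA differences among the reported targets were those of CCND1 and CCND2 in confluent cells. Many pathways control these genes, and the cause of their differences was not tested. CCND1, the D-type cyclin of G1, had 658 (CDC73) and 5171 (control) in confluent cells and 2171 (CDC73) and 6643 (control) in sparse cells. Both CDC73 arrays were under both control arrays, and the log2 difference was -1.62 in sparse cells. CCND2, its relative, had 957 (CDC73) and 5278 (control) in confluent cells and 2050 (CDC73) and 4722 (control) in sparse cells, at -1.20 in sparse cells, where a second probe gave -1.17.

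CD44, a hyaluronan receptor, had 386 (CDC73) and 1133 (control) in confluent cells and 615 (CDC73) and 1232 (control) in sparse cells. It was at -1.15 in confluent and -1.08 in sparse cells. In sparse cells its second probe was detected with control siRNA, at 126, and under the limit with CDC73 siRNA, at 96.3. CCND1, CCND2 and CD44 were the 3 targets past 2-fold at both densities, all in the direction of GLI1.

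CDK6, the kinase partner of D-type cyclins, had 210 (CDC73) and 652 (control) in confluent cells and 395 (CDC73) and 540 (control) in sparse cells. It was at -1.40 in confluent and -0.55 in sparse cells. NKX2-2, a neural transcription factor, had 382 (CDC73) and 1184 (control) in confluent cells and 587 (CDC73) and 571 (control) in sparse cells, and was at -1.24 in confluent and 0.02 in sparse cells. For these genes the difference was larger in confluent cells, whereas that of GLI1 was larger in sparse cells.

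The reported targets past 2-fold higher with CDC73 siRNA were dim, and brighter targets were higher by less than 2-fold. FOXA2, a forkhead factor of the floor plate, had 188 (CDC73) and 206 (control) in confluent cells and 199 (CDC73) and 114 (control) in sparse cells. In sparse cells it was under the limit with control siRNA, and at least 1.56-fold higher with CDC73 siRNA. FOXF1, another forkhead factor, was detected only on the sparse array with CDC73 siRNA, at 112 against 72.8 with control siRNA, and no fold can be given.

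With control siRNA, 13 of 26 measured targets were higher and 13 lower in confluent than in sparse cells, with a median of 0.03, and 3 of them (11.5%) passed 2-fold, against 5.5% of all genes. With CDC73 siRNA 10 of 28 were higher and 18 lower, with a median of -0.34, and 4 (14.3%) passed 2-fold, against 8.19% of all genes. MYCN in both counts, and FOXA2 with control siRNA, were under the limit in sparse cells and counted as measured through the confluent array alone. With control siRNA that leaves BCL2 as the gene past 2-fold and detected on both arrays. The shares of all genes follow the same rule, and no excess is read from these counts. MYCN, a MYC family factor, had 134 (confluent) and 98.8 (sparse) with CDC73 siRNA, and 160 (confluent) and 80.6 (sparse) with control siRNA, both sparse arrays being under the limit. It was at least 1.28-fold higher in confluent cells with CDC73 siRNA and at least 1.11-fold higher with control siRNA. FOXA2 was at least 1.38-fold higher in confluent cells with control siRNA, with the signals given above. BCL2, an inhibitor of apoptosis, was at -1.02 with control siRNA, where a second probe was under the limit in confluent cells, at 119, against 126 in sparse cells. With CDC73 siRNA CCND1 was at -1.43, OLIG2, a neural factor, at -1.13 and TBX2, a T-box factor, at -1.10 in confluent over sparse cells.

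**Figure D4:**
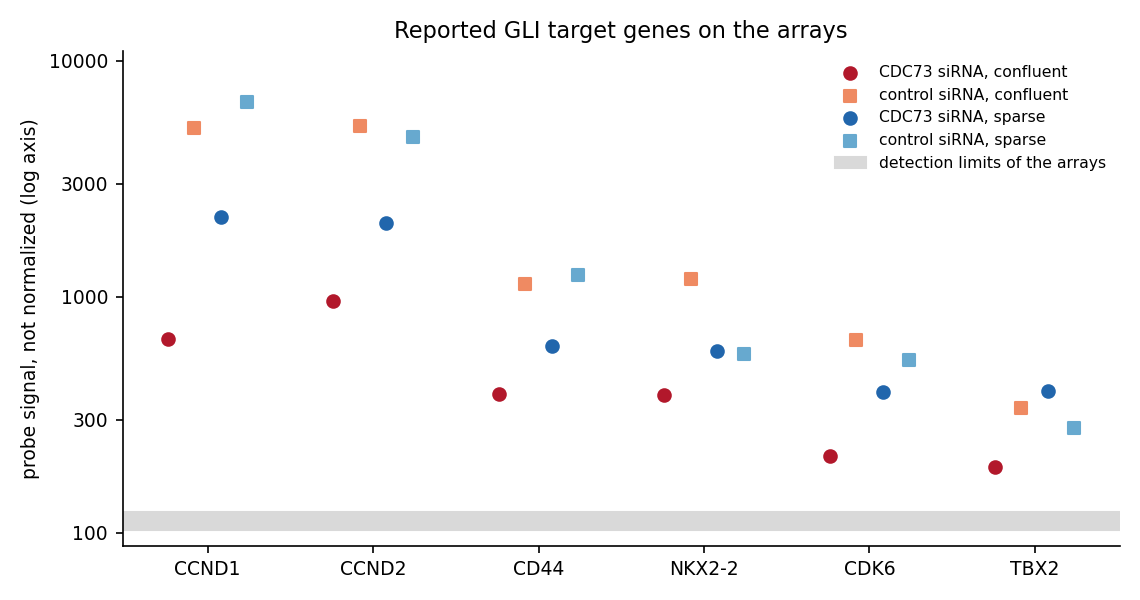
Signals of 6 reported GLI target genes on the 4 arrays, on a log axis; circles are CDC73 siRNA and squares control siRNA, and the grey band spans the detection limits. For CCND1, CCND2, CD44 and CDK6 both circles lie under both squares, whereas for TBX2 and NKX2-2 the circle of sparse cells lies above the square of sparse cells.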

How the data were processed

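Total RNA of 4 HEK293 samples was amplified to biotin-labelled cRNA for Illumina arrays, per the labels' protocols. The authors deposited a non-normalized table of probe intensity, per the file headers, without detection p-values or bead counts, and a table whose values show it to be log2 and normalized between arrays (median 6.42 on each). Neither software nor genome build is given in the sources used here.

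Of 48803 probes with values, 28098 had 1 gene symbol, updated through RefSeq. The 453 olfactory receptor probes served as negative controls in the normexp correction of limma 3.58.1 in R 4.3.3. With an offset of 16, values were quantile normalized across arrays and turned into log2. Each gene was represented by its brightest named probe, and was measured when detected (p under 0.01) on at least 1 array compared. The limit was 2-fold, with no test, as each group has 1 array, and the number of arrays limits the precision. Bounds were taken against the detection limit or the dim probe's own value, whichever was higher, as the lowest of 7 scalings. The steps were tested on simulated data. In further lists the genes past 2-fold, or else up to 3 with the largest difference, were named, and 5 genes most like the member of widest range. The genes and lists were chosen with earlier results of these data known. A few genes of the further lists are not reported here.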

Additional observations from a re-analysis of the deposited data

Results flagged for a closer look

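GLI3 and GLI2 had siRNA differences of opposite direction at the 2 densities. For GLI3 the log2 difference of CDC73 from control siRNA was -0.40 in confluent and 0.58 in sparse cells, which gives -0.98 for confluent minus sparse. For GLI2 it was -0.37 in confluent and 0.29 in sparse cells, which gives -0.66. With 1 array a group the opposite directions were not tested. The confluent array with CDC73 siRNA had the lowest total signal, and its part in these values was not tested.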

How the results depend on the processing

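No paired analysis was possible because the results come from no test. HHIP and SUFU, undetected, were given no difference. Of 10 alternatives, 9 were planned, and median scaling on the probes detected on all 4 arrays was chosen after seeing the data. In none of the 10 did one of the 7 genes pass 2-fold. GLI1 was lower with CDC73 siRNA in all of them, at -0.62 in sparse cells with an offset of 50, -0.43 in the authors' log2 table and -0.45 without background correction, and confluent over sparse with control siRNA it was at -0.29 in the authors' table, with 0.26 for its difference of differences. GLI2 in confluent over sparse cells with CDC73 siRNA was at -0.41 in the authors' table and -0.36 without background correction, which gave differences of differences of -0.31 (GLI2) and -0.58 (GLI3). Median scaling over all probes moved the median of all genes to -0.40 for siRNA in confluent cells, where GLI1 was at -0.59, GLI2 at -0.68, GLI3 at -0.79, PTCH1 at -0.077 and SMO at -0.46, to -0.25 for density with CDC73 siRNA, and to 0.22 for density with control siRNA, where GLI1 was at -0.30, GLI2 at 0.20, GLI3 at 0.69 and PTCH1 at 0.33. Its differences of differences were 0.25 (GLI1), -1.03 (GLI2), -1.46 (GLI3), -0.48 (PTCH1) and -0.76 (SMO). Median scaling on detected probes put GLI1 at -0.10 for siRNA in confluent cells.

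The number of further pathway and target genes past 2-fold was 8 for siRNA in sparse cells, 5 for siRNA in confluent cells, 4 for density with control siRNA and 5 for density with CDC73 siRNA. In sparse cells it was 2 without background correction, 3 with an offset of 50 or in the authors' table, 4 with the mean of probes and 5 with maximum likelihood background or detection on both arrays. In confluent cells it was 8 with median scaling. For density with control siRNA it was 0 in the authors' table and with uncorrected background, 1 with an offset of 50, the mean of probes or detection on both arrays, 2 with maximum likelihood and 9 with median scaling. For density with CDC73 siRNA it was 1 without background correction, 2 with an offset of 50 or in the authors' table, 3 with maximum likelihood and 8 with median scaling.

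Over all genes, 399 passed 2-fold for siRNA in sparse cells, against 87 without background correction, 114 in the authors' table, 152 with an offset of 50, 218 with maximum likelihood and 230 with detection on both arrays. For siRNA in confluent cells 603 passed, against 202, 261, 307 and 389 in the first 4 of these and 1301 with median scaling, where 62 were higher and 1239 lower instead of 239 and 364. For density with control siRNA 563 passed, against 160, 209, 257, 356 and 367 in the same 5 and 899 with median scaling (815 higher and 84 lower instead of 395 and 168). For density with CDC73 siRNA 861 passed, against 280, 366 and 446 in the first 3 (with median scaling 248 higher and 853 lower instead of 453 and 408). The causes of these shifts were not tested. Signals of 103 to 161 for GLI1 and GLI2, against detection limits of 103 to 123, limit what these arrays can show.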
